A study of Mus musculus with 7 samples.

Results

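Aquaporins are membrane channels that let water, and in some members glycerol, small solutes or ions, cross cell membranes along osmotic gradients. Each channel is a tetramer of subunits that carry a pore each. In the brain the family is best known for Aqp4, the main water channel of astrocytes, which sits at their endfeet around blood vessels, and for Aqp1 in the choroid plexus. Of 55384 listed genes, 7 are described here: Aqp1, Aqp2, Aqp4, Aqp5, Aqp6, Aqp9 and Aqp11. They were picked as aquaporins by symbol, including the neighbouring Aqp2, Aqp5 and Aqp6 genes, and matched to the table through their Ensembl identifiers. The list was drawn up with the change of these genes between groups already known, so the values of the 7 genes in the 2 groups below are a description, with no test of that choice.

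Kisspeptin cells of the mouse AVPV, the anteroventral periventricular nucleus of the hypothalamus, were the source of the RNA, and these cells take part in the ovulatory surge of gonadotropins. The E2 group held 3 libraries from estradiol-treated female mice, and the GDX group held 4 libraries from ovariectomized female mice without estradiol. All mice were Kiss1Cre+/Rpl22HA+/+ on a C57BL/6 background, so the ribosomal protein Rpl22 carried an HA tag where Cre driven by Kiss1 had acted. Tagged ribosomes were pulled down from AVPV micropunches, each library from a pool of 4 brains, and their polyadenylated RNA was sequenced without strand information. The labels do not say whether the estradiol-treated mice had been ovariectomized, nor give age, dose or duration. As Kiss1 drives the Cre, tagging follows past or present Kiss1 expression, and in such pooled samples fewer cells of a type and less RNA per cell cannot be told apart.

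Library totals ran from 29207544 to 36213127 expected counts. RNA of other cells was present in all libraries. The summed level of 10 astrocyte markers was 1270 to 1480 CPM (counts scaled to library size) in E2 libraries and 1570 to 3553 CPM in GDX libraries, and none of the markers was at 0. GDX replicates 1 and 4 stood apart, with 3011 and 3553 CPM against 1573 and 1570 CPM in GDX replicates 2 and 3. The 6 neuronal markers summed to 2698 to 2892 CPM in E2 and 2538 to 2954 CPM in GDX libraries. The 5 kisspeptin cell markers, all detected, summed to 1626 to 1744 CPM in E2 and 889 to 1108 CPM in GDX libraries. Of these, Kiss1, Th and Pgr were called higher in E2, while Esr1 (194 ± 16.8 CPM in E2, 255 ± 36.8 CPM in GDX, adjusted p = 0.09) and Slc32a1 (402 ± 42.1 CPM in E2, 382 ± 14.7 CPM in GDX, adjusted p = 0.731) were not called. The edgeR fit thus called 3 of the 5 higher, and 2.55% of all tested genes. DESeq2 called 3 higher and 1 lower (3.66% and 3.94% of tested genes), and limma-voom 3 and 0 (3.74% and 2.18%). At an unadjusted p under 0.05 in the edgeR fit, 3 were higher and 1 lower (7.88% and 8.89%). Esr1 was the 1 marker with a log2 fold change below 0 (−0.39 ± 0.11). Slc32a1 shares 697 bp with Gm14205 on the opposite strand.

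Aqp5 was the aquaporin that differed most between the groups. It encodes the water channel of secretory epithelia such as salivary and lacrimal glands. Aqp5 (ENSMUSG00000044217, chromosome 15, 99590782 to 99594829, plus strand, GRCm38) stood at 29.8, 27.4 and 30.1 CPM in E2 replicates 1 to 3, against 0.682, 0.671, 0.549 and 1.14 CPM in GDX replicates 1 to 4. The groups did not overlap, and the lowest E2 library lay far above the highest GDX library. These levels rested on 967, 831 and 911 counts in E2 libraries and 25, 20, 20 and 41 counts in GDX libraries, so the gene was above the floor of 3 counts in each of the 7 libraries. The means were 29.1 ± 1.48 CPM in E2 (SD, n = 3) and 0.762 ± 0.262 CPM in GDX (SD, n = 4), a 38.2-fold higher level in E2. The log2 fold change was 5.25 ± 0.22 (SE), the rank 8 of 18282 tested genes counted from the largest rise. Kiss1, which marks the cells and drives the Cre, measured 381, 485 and 379 CPM in E2 libraries, against 52.1, 44.5, 56.0 and 114 CPM in GDX libraries. GDX replicate 4 was the highest GDX library for both Kiss1 and Aqp5. Replicate 3 was next for Kiss1 and lowest in Aqp5 CPM, though GDX replicates 2 and 3 both had 20 Aqp5 counts. Within E2, replicate 2 had the most Kiss1 and the least Aqp5, at 27.4 CPM against 29.8 and 30.1 CPM. These orders rest on close Aqp5 values, and whether Aqp5 follows Kiss1 within a group was not tested.

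Aqp4, the astrocyte channel, had its lower values in E2. Aqp4 (ENSMUSG00000024411, chromosome 18, 15389496 to 15410982, minus strand) measured 33.4, 35.9 and 38.4 CPM in E2 libraries, against 170.3, 57.2, 59.1 and 184 CPM in GDX libraries. The groups did not overlap, and GDX replicates 1 and 4, those with the most astrocyte marker RNA, held the 2 highest values. The mean was 35.9 ± 2.52 CPM in E2 (SD, n = 3) and 118 ± 68.8 CPM in GDX (SD, n = 4), 3.27-fold higher in GDX. The log2 fold change of −1.71 ± 0.54 did not meet the threshold of an adjusted p under 0.05 in the edgeR fit. Without GDX replicates 1 and 4, a choice made after seeing the data, it was −0.70 ± 0.11 and met the threshold.

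The remaining members showed no such gap. Aqp11 encodes a channel of the endoplasmic reticulum, and it was the steadiest of the tested members. Aqp11 (ENSMUSG00000042797, chromosome 7, 97724006 to 97738289, minus strand) measured 7.06, 7.61 and 7.93 CPM in E2 libraries and 8.40, 5.74, 7.12 and 7.51 CPM in GDX libraries. The groups overlapped, and its highest library was 1.46 times its lowest. The log2 fold change was 0.07 ± 0.19.

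Aqp6, known from intracellular vesicles of kidney cells, where the rat protein also conducts anions, was low. Aqp6 (ENSMUSG00000043144, chromosome 15, 99601400 to 99605477, plus strand) measured 2.25, 0.890 and 1.78 CPM in E2 libraries and 0.873, 2.92, 2.09 and 1.65 CPM in GDX libraries. The groups overlapped over most of their range, and the log2 fold change was −0.19 ± 0.46. Aqp9 encodes an aquaglyceroporin, a channel that also passes glycerol, and is known in brain from astrocytes and some catecholaminergic neurons. Aqp9 (ENSMUSG00000032204, chromosome 9, 71110659 to 71168682, minus strand) measured 0.616, 0.0659 and 1.78 CPM in E2 libraries and 1.64, 0.637, 0.522 and 0.838 CPM in GDX libraries. The E2 libraries held both the lowest and the highest value, and the lowest, in E2 replicate 2, was 2 counts, under the floor of 3 (log2 fold change −0.15 ± 0.80). Aqp9, also known from astrocytes, showed no gap between groups such as that of Aqp4. At 2 to 60 counts per library, with log2 fold changes of −1.40 to 0.39 when 1 library was left out, a like difference could not be told. No member is an established marker of neurons, and the libraries do not show which cell each count came from.

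Aqp1 encodes the channel of choroid plexus epithelium and red blood cells. Aqp1 (ENSMUSG00000004655, chromosome 6, 55336432 to 55348555, plus strand) had 1, 13 and 13 counts in E2 libraries, or 0.0308, 0.429 and 0.429 CPM. It had 14, 5, 7 and 17 counts in GDX libraries, or 0.382, 0.168, 0.192 and 0.475 CPM. The groups overlapped, and E2 replicate 1 was the lowest library (log2 fold change −0.05 ± 0.82). The 6 choroid plexus markers summed to 87.0 to 101 CPM in E2 and 64.4 to 95.4 CPM in GDX libraries, and Ttr, the transthyretin gene among them, was higher in E2 (12.4 ± 2.64 CPM in E2, 3.54 ± 0.834 CPM in GDX, adjusted p = 0.000704). Ttr was the 1 called gene of the 5 tested choroid plexus markers, of which 3 had log2 fold changes below 0, and the list's median was −0.08. Over all tested genes, edgeR called 2.55% higher in E2. The 5 red blood cell markers summed to 325 to 717 CPM in E2 and 158 to 390 CPM in GDX libraries. No marker of either list was at 0 in all libraries, and the part of these cells in the Aqp1 counts was not tested.

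Aqp2, the vasopressin-regulated channel of the kidney collecting duct, was close to undetected. Aqp2 (ENSMUSG00000023013, chromosome 15, 99579055 to 99584547, plus strand) had 3, 0 and 1 counts in E2 libraries and 1, 0, 0 and 0 counts in GDX libraries. Both groups were at or under the floor of 3 counts, which is 0.0818 to 0.101 CPM across libraries, so no fold is given and a difference was not detectable at this depth. The 5 other aquaporin genes in the table did not pass the filter on low counts either. Aqp8 had no count in any library. Mip, which shares 1223 bp with Gm26847 on the opposite strand, had 0, 8 and 0 counts in E2 and 0, 7, 8 and 0 counts in GDX libraries. Aqp7 had 0, 4 and 1 counts in E2 and 8, 0, 10 and 7 in GDX libraries, and Aqp12 had 2 counts in E2 replicate 1 and none elsewhere. Aqp3, which passes glycerol in skin and kidney, had 21 counts in E2 replicate 3, 0 and 2 in E2 replicates 1 and 2, and 0, 0, 1 and 2 in GDX libraries.

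**Figure D1:**
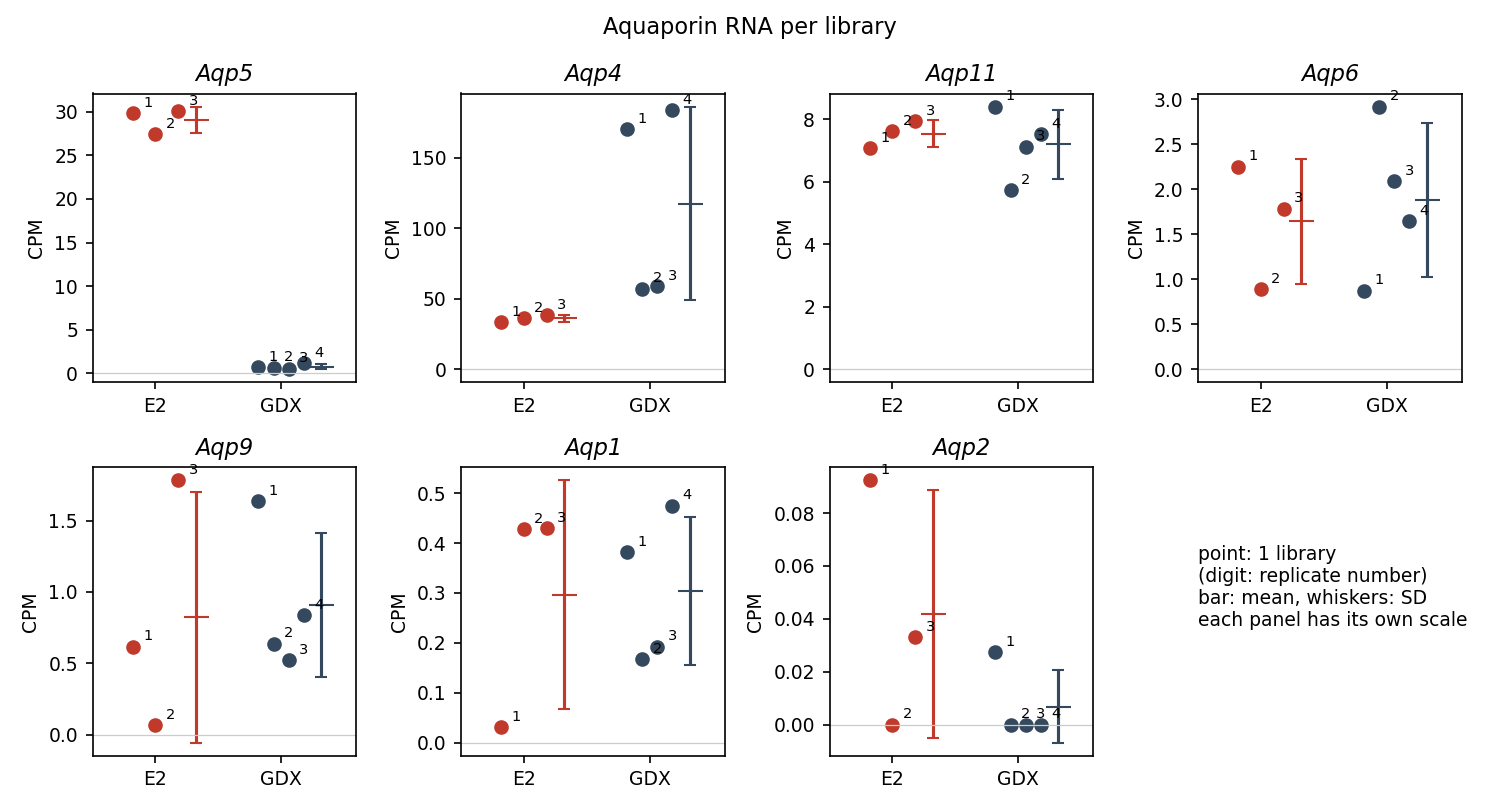
CPM of the 7 aquaporin genes by library, with 3 E2 libraries at the left and 4 GDX libraries at the right of each panel, the mean as a bar and the SD as whiskers. The scale differs by panel: Aqp5 lies at 27.4 to 30.1 CPM in E2 and at most 1.14 CPM in GDX, Aqp4 at 33.4 to 38.4 CPM in E2 and 57.2 to 184 CPM in GDX, and the groups overlap in the other 5 panels.

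Of the 7 members, 6 passed the filter on low counts and Aqp2 did not. The edgeR fit over all genes called 1 member higher in E2, Aqp5, where 2.55% of all tested genes were called higher and 3.88% were called in either direction. It called 0 members lower, where 1.33% of tested genes were lower. Aqp4 was the 1 member lower at an unadjusted p under 0.05, and 1 member was called lower both by DESeq2 and by limma-voom. Over all tested genes, 7.88% were higher and 8.89% lower at an unadjusted p under 0.05, DESeq2 called 3.66% higher and 3.94% lower, and limma-voom called 3.74% higher and 2.18% lower. Aqp4 and Aqp5 were the 2 members whose groups did not overlap, as held for 16.5% of tested genes. These counts follow from the way the members were picked and carry no weight of their own. No exon of any of the 7 genes overlapped an exon of another annotated gene.

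Levels were also set per length, as TPM (counts per base of exon, scaled to the same sum in each library) computed here with the summed exon length of each gene, so that genes could be ranked within a group. In E2 libraries Aqp5 came first at 37.0 ± 2.35 TPM and Aqp4 next at 19.0 ± 1.52 TPM (SD, n = 3 each), with no overlap between them. In CPM, however, Aqp4 lay above Aqp5 in each E2 library. The order in TPM thus rests on the lengths, 6233 bp for Aqp4 and 2599 bp for Aqp5. Aqp11 (2.64 ± 0.176 TPM) and Aqp6 (2.24 ± 0.953 TPM) followed and overlapped each other. Aqp9 at 0.662 ± 0.712 TPM and Aqp1 at 0.373 ± 0.290 TPM also overlapped, and Aqp2 was last at 0.0976 ± 0.109 TPM, overlapping Aqp1. In GDX libraries Aqp4 came first at 69.8 ± 43.8 TPM (SD, n = 4). Aqp6 (2.78 ± 1.20 TPM) and Aqp11 (2.77 ± 0.514 TPM) followed and overlapped. Aqp5 came after them, at 1.08 ± 0.438 TPM, overlapping both Aqp6 above it and Aqp9 below it at 0.801 ± 0.458 TPM. Aqp1 at 0.427 ± 0.231 TPM overlapped Aqp9 in turn, and Aqp2 was again last.

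Aqp5 thus changed its place in the family. It made up 59.0% ± 2.05 of the summed TPM of the 12 aquaporin genes in E2 libraries (SD, n = 3), against 1.58% ± 0.574 in GDX libraries (SD, n = 4). Aqp4 made up 30.4% ± 1.86 in E2 and 86.3% ± 7.25 in GDX libraries, with the same n. Among all tested genes, Aqp5 lay above 74.5% of them in mean TPM in E2 and above 11.2% in GDX. Aqp4 lay above 59.8% in E2 and 84.6% in GDX, and Aqp11 above 25.0% in E2 and 23.2% in GDX. The order of Aqp11 and Aqp6 in GDX depended on the length used, since with the longest annotated transcript Aqp11 stood at 3.53 TPM there and Aqp6 at 2.57 TPM. With the longest protein-coding transcript, chosen after seeing the data, they stood at 5.14 and 2.42 TPM. Aqp5 stayed above Aqp4 in E2 with each of these lengths, but each took 5054 bp or more for Aqp4. Its other protein-coding transcripts are 453 to 1511 bp long. Which of them the counts came from was not tested, so this order and the shares depend on the Aqp4 length.

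**Figure D2:**
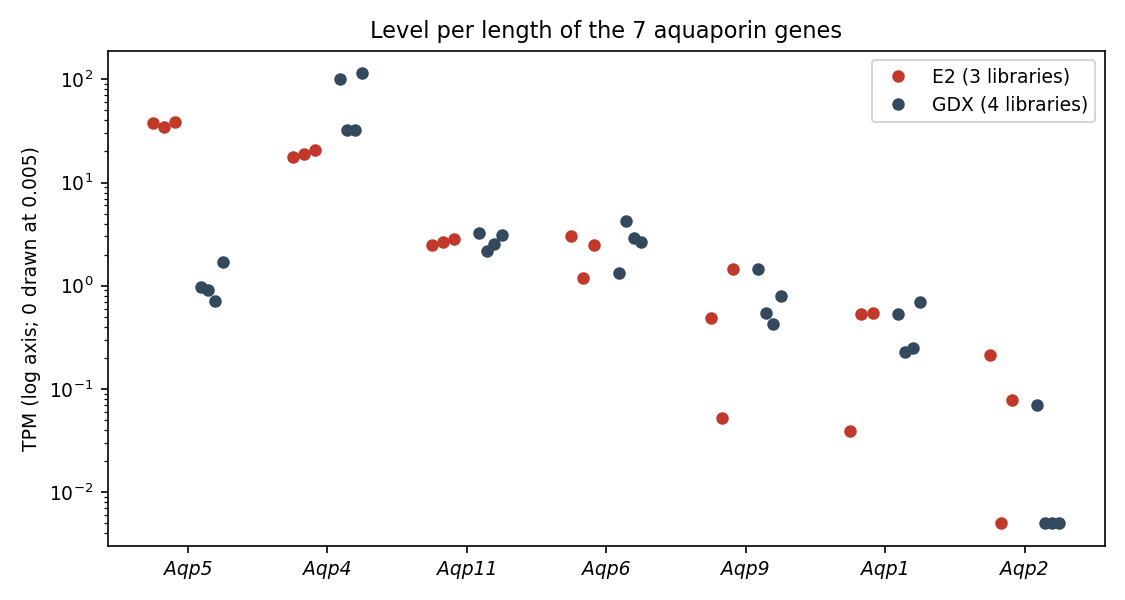
TPM of the 7 aquaporin genes on a log axis, 1 point per library, E2 libraries left of GDX libraries for each gene, and values of 0 drawn at 0.005. With the summed exon length, Aqp5 is the highest gene in E2 (34.4 to 38.8 TPM) and lies at 0.714 to 1.71 TPM in GDX, where Aqp4 leads.

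Aqp2, Aqp5 and Aqp6 lie head to tail on the plus strand of chromosome 15 within 26423 bp, with 6234 bp between Aqp2 and Aqp5 and 6570 bp between Aqp5 and Aqp6. The genes around them were compared to see how far along the chromosome the difference of Aqp5 reached. Faim2, which encodes an inhibitor of Fas-mediated cell death and lies 50890 bp from Aqp2 on the side away from Aqp5, measured 1049 ± 37.9 CPM in E2 and 1025 ± 64.5 CPM in GDX (log2 fold change 0.03 ± 0.07, adjusted p = 0.877). Racgap1, a GTPase-activating protein gene of cell division, lies on the opposite strand, 15019 bp beyond Aqp6, and was lower in E2. Racgap1 measured 12.5, 12.1 and 11.6 CPM in E2 libraries, against 19.7, 22.6, 19.9 and 18.3 CPM in GDX libraries, with no overlap (log2 fold change −0.74 ± 0.12, adjusted p = 0.00511). It was called under every one of the 16 alternative settings, with log2 fold changes from −0.87 to −0.68.

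Asic1, an acid-sensing ion channel gene 64891 bp away, measured 109 ± 5.43 CPM in E2 and 119.9 ± 3.97 CPM in GDX. Its groups did not overlap either (log2 fold change −0.14 ± 0.07, adjusted p = 0.35). Smarcd1, a chromatin remodelling subunit gene, measured 90.6 ± 5.69 CPM in E2 and 93.5 ± 3.71 CPM in GDX (−0.05 ± 0.08, adjusted p = 0.843), and Gm17349 had no count. Smarcd1 shares 287 bp with Gm17349 and 224 bp with Gm34939 on the opposite strand. Of the tested protein-coding genes within 100 kb, then, Aqp5 was called higher and Racgap1 lower, while Faim2, Aqp6, Asic1 and Smarcd1 were not called. Over all tested genes, edgeR called 2.55% higher and 1.33% lower, and 16.5% had groups that did not overlap.

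**Figure D3:**
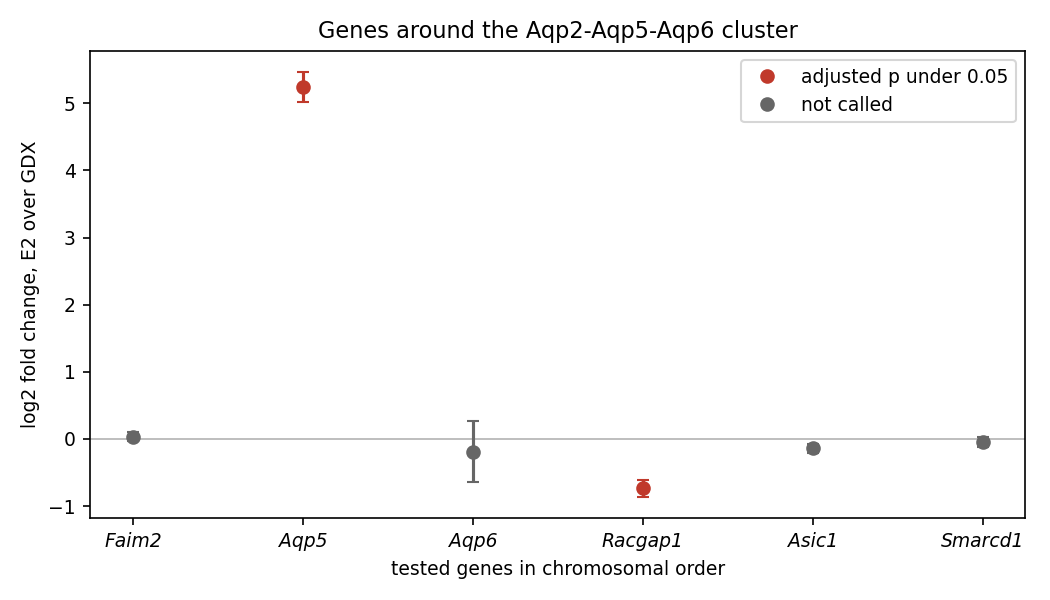
Log2 fold changes, E2 over GDX, of the 6 tested protein-coding genes within 100 kb of the cluster, in chromosomal order, with SE as whiskers and called genes in red. Aqp5 stands at 5.25, Racgap1 at −0.74, and the others between −0.19 and 0.03.

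RefSeq promoter windows, from 250 bases before to 50 bases after each start on GRCm38.p6, were matched for 6 of the 7 members, and those of the cluster are shown because its genes differ so much in level. They read 5′ to 3′ on the plus strand, and capitals mark GGTCA, the single arm of an estrogen response element, on either strand. The windows are chr15:99590778-99591077 for Aqp5, chr15:99578806-99579105 for Aqp2 and chr15:99600950-99601249 for Aqp6.
Aqp5: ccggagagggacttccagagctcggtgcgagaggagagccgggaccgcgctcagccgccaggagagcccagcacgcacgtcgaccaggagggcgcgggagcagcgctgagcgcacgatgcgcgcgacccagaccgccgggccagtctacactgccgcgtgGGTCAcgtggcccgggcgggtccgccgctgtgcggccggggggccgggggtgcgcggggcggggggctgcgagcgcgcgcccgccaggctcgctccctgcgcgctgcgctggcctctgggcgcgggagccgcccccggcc
Aqp2: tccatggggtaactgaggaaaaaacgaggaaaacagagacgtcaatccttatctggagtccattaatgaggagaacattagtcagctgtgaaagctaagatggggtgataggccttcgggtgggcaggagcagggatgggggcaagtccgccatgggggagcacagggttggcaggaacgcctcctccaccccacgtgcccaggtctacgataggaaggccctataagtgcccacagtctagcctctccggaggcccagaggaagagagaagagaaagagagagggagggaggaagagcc
Aqp6: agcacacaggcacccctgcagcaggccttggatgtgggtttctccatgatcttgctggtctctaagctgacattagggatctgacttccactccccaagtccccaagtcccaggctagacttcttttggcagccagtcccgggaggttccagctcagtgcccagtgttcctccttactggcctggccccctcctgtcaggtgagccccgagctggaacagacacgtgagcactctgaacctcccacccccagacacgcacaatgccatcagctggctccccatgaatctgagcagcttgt
The GGTCA arm occurred at 1 place in the Aqp5 window, beginning 90 bases before the RefSeq start, and at 0 places in those of Aqp2, Aqp6 and Aqp1. It occurred at 1 place in the Aqp11 window and at 2 places in 1 of the 2 windows of Aqp9. This arm was present in 40.5% of all 32851 RefSeq windows of this size. The full element, GGTCA followed by any 3 bases and TGACC, was in none of the windows of Aqp1, Aqp2, Aqp5, Aqp6, Aqp9 and Aqp11, and in 0.0700% of all windows. GGGCGG, the letters of an SP1 box, occurred at 3 places in the Aqp5 window and at 1 place in that of Aqp1, and was in 35.7% of all windows. TGANTCA (AP-1, in 7.81% of all windows) was found in 1 of the 2 windows of Aqp9, and TGACGTCA (CRE, 1.79%) and TATAAA (13.6%) in none of the members' windows. Both strands were searched, and the full element contains the GGTCA arm. The G and C content was 79.7% in the Aqp5, 56.0% in the Aqp2 and 58.7% in the Aqp6 window, against a median of 52.7% over all windows. In GENCODE vM21 the first Aqp5 transcript starts at 99590782, near the beginning of the Aqp5 window. Nearly all of that window thus lies inside the transcribed region of that model. The Aqp6 transcripts of GENCODE vM21 start at 99601400, beyond the end of the Aqp6 window at 99601249. These matches describe letters in the windows and say nothing of binding.

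The levels of Aqp4 were set beside those of astrocyte RNA. All 10 astrocyte markers had log2 fold changes below 0, with a median of −0.52, where the median over all tested genes was 0.004. The edgeR fit called 0 of these 10, with 4 lower at an unadjusted p under 0.05, while DESeq2 called 3 lower and limma-voom 2. Over all tested genes, 8.89% were lower at that unadjusted p, and edgeR, DESeq2 and limma-voom called 1.33%, 3.94% and 2.18% lower. The mean log2 CPM of the 10 markers was 6.28 ± 0.12 in E2 (SD, n = 3) and 6.88 ± 0.45 in GDX (SD, n = 4). The difference of −0.60 gave p = 0.114 (exact permutation test, two-sided, 35 splits, smallest possible p 0.0286). Aqp4 came to 2.63%, 2.61% and 2.6% of the summed marker CPM in E2 libraries, against 5.65%, 3.64%, 3.76% and 5.17% in GDX libraries. The groups did not overlap in this ratio, and the 3 E2 libraries differed little from each other. The ratio depends on the markers summed, whose log2 fold changes ran from −2.36 ± 0.77 for Gfap to −0.03 ± 0.08 for Aldoc. Aqp4, at −1.71 ± 0.54, lay between Gfap and the next lowest marker, Gja1, at −0.97 ± 0.36. Whether Aqp4 differed beyond astrocyte RNA was not tested by this ratio. With the astrocyte score as a covariate the log2 fold change of Aqp4 was −0.32 ± 0.14 and that of Aqp5 was 5.75 ± 0.29. The score is itself lower in every E2 library than in any GDX library, so the covariate and the treatment are partly confounded.

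Aqp4 is also made by ependymal cells, which line the ventricle beside the AVPV. The 6 ependymal and tanycyte markers, none at 0 in all libraries, summed to 30.5 to 54.7 CPM in E2 and 56.4 to 112 CPM in GDX libraries. Of the 5 that were tested, all were lower at an unadjusted p under 0.05, and 2 were called lower both by DESeq2 and by limma-voom. The edgeR fit called 1 lower, the chemerin gene Rarres2 (10.4 ± 2.74 CPM in E2, 21.2 ± 5.4 CPM in GDX, adjusted p = 0.0356). Over all tested genes, 8.89% were lower at an unadjusted p under 0.05, and edgeR, DESeq2 and limma-voom called 1.33%, 3.94% and 2.18% lower. Rarres2 shares 892 bp with Lrrc61 on the opposite strand, and 7 of 16 alternative settings did not call it. These were leaving out E2 replicate 1 (adjusted p = 0.117), 2 (0.086) or 3 (0.0833), GDX replicate 1 (0.1) or both GDX replicates 1 and 4 (0.0711), the astrocyte covariate (0.314) and the replicate block (0.101). The part of ependymal RNA in the Aqp4 difference was not tested.

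Markers of blood vessel cells, which the endfeet touch, were set beside Aqp4 as well. The 5 endothelial markers, none at 0 in all libraries, summed to 66.1, 112 and 112 CPM in E2 libraries and 225, 145, 122 and 319 CPM in GDX libraries. The groups did not overlap, and GDX replicates 1 and 4 were again the highest. All 5 log2 fold changes were below 0, with a median of −1.06. The edgeR fit called 0 of the 5, with 4 lower at an unadjusted p under 0.05, while DESeq2 called 1 lower and limma-voom 2. The shares over all tested genes were 1.33%, 8.89%, 3.94% and 2.18% lower, in that order. The 6 oligodendrocyte markers summed to 2557 to 3074 CPM in E2 libraries and to 5728, 2991, 2758 and 3046 CPM in GDX libraries, so GDX replicate 1 stood apart there. The part of these cells in the Aqp4 difference was not tested.

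**Figure D4:**
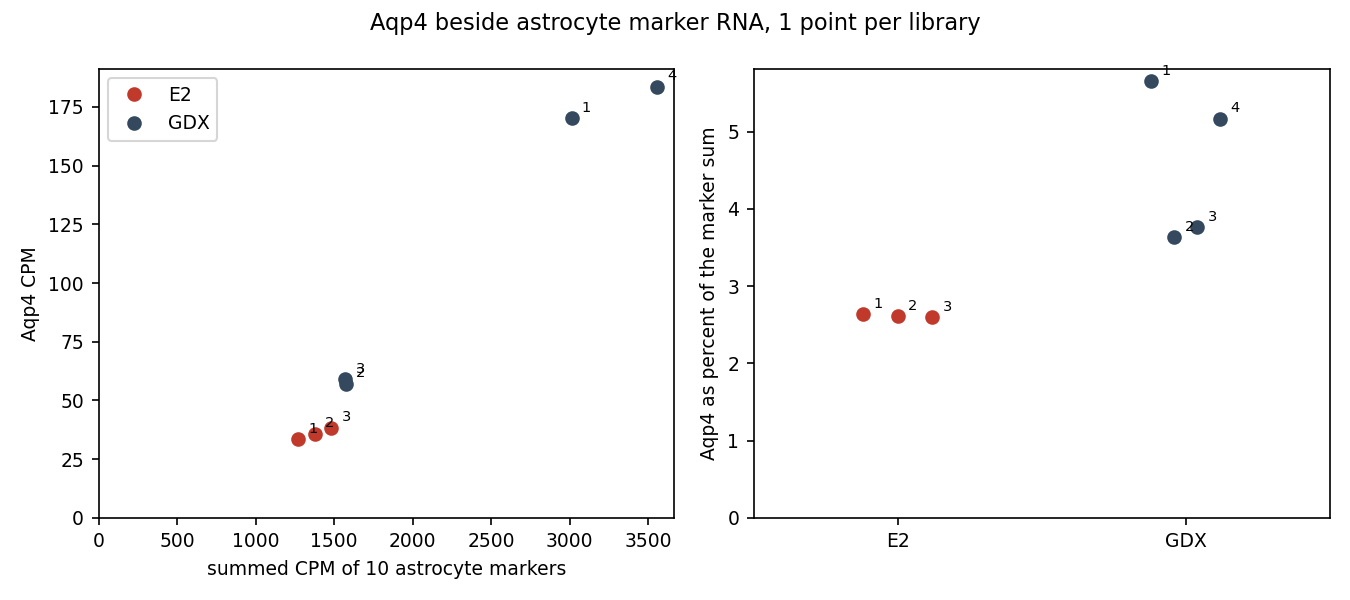
Left, Aqp4 CPM against the summed CPM of 10 astrocyte markers, 1 point per library with its replicate number; right, Aqp4 as a percent of that sum, E2 left of GDX. The E2 libraries sit at 2.6% to 2.63% and the GDX libraries at 3.64% to 5.65%.

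The genes whose log2 CPM over the 7 libraries was most like that of Aqp4 and of Aqp5 were picked by Pearson's r among the 15289 genes averaging 1 CPM or more, and r is given as a description, since the gap between groups enters each r. Closest to Aqp4 was Gfap, the astrocyte intermediate filament gene (r = 0.996), which measured 181, 163 and 203 CPM in E2 libraries and 1323, 313, 356 and 1765 CPM in GDX libraries. As for Aqp4, GDX replicates 1 and 4 held its highest values. Ccdc3 (r = 0.992), Afap1l1 (0.990), Gprc5b (0.989) and Arhgef26 (0.988) followed. All but Gfap share exonic bases with a gene on the opposite strand, over 1845, 149, 606 and 2189 bp in that order. Closest to Aqp5 was Chrnb4, a nicotinic acetylcholine receptor subunit gene (r = 0.999), at 17.6 ± 0.540 CPM in E2 and 3.96 ± 0.620 CPM in GDX. Syt6, a synaptotagmin gene (r = 0.999), measured 218 ± 8.60 CPM in E2 and 60.2 ± 7.68 CPM in GDX. Parm1 (r = 0.998), Nxn, the nucleoredoxin gene (0.997), and Fhod3, a formin gene (0.996), completed the 5. All 5 were called higher in E2, as were 2.55% of all tested genes. Their likeness to Aqp5 was picked on the same gap, so these calls carry no weight of their own. Of the genes closest to Aqp4, Gfap, Ccdc3, Afap1l1, Gprc5b and Arhgef26 were not called by edgeR. Syt6 shares 505 bp with Atg4a-ps and Fhod3 309 bp with Gm9955, each on the opposite strand.

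Genes that act with aquaporins were read from 5 lists, and the counts of each are to be read beside the shares over all tested genes. Of those genes, edgeR called 2.55% higher and 1.33% lower, DESeq2 3.66% and 3.94%, and limma-voom 3.74% and 2.18%. At an unadjusted p under 0.05 in the edgeR fit, 7.88% were higher and 8.89% lower. The list of the cyclic AMP route and trafficking holds genes of cyclic AMP signalling and of the trafficking of Aqp2 or Aqp5 in kidney and gland cells. Of its 17 tested genes, edgeR called 2 higher and 0 lower, DESeq2 called 2 higher and 2 lower, and limma-voom called 2 higher and 0 lower. The median log2 fold change was 0.09, and at an unadjusted p under 0.05 it had 3 higher and 2 lower. Ezr encodes ezrin, which links membrane proteins to actin. Ezr measured 172, 167 and 156 CPM in E2 libraries, against 65.1, 40.0, 52.2 and 79.2 CPM in GDX libraries, with no overlap (log2 fold change 1.48 ± 0.21, adjusted p = 0.00687). Prkacb, a catalytic subunit gene of protein kinase A, measured 949.7, 931 and 926 CPM in E2 libraries, against 657, 682, 648 and 732 CPM in GDX libraries (0.46 ± 0.06, adjusted p = 0.00132). Both genes were called under all 16 alternative settings, and Ezr shares 4 bp with Sytl3 on the opposite strand. The vasopressin receptor genes were tested but not called, with 0.257 ± 0.215 CPM in E2 and 0.449 ± 0.362 CPM in GDX for Avpr2 (adjusted p = 0.741). Avpr1a measured 2.57 ± 0.201 CPM in E2 and 4.73 ± 1.21 CPM in GDX, with no overlap (log2 fold change −0.88 ± 0.27, adjusted p = 0.105).

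In the list of Aqp4 anchoring and endfoot genes, 0 of 11 tested genes were called by edgeR, 3 were lower at an unadjusted p under 0.05, and 1 was called lower both by DESeq2 and by limma-voom. The median log2 fold change was −0.16, with 10 of the 11 below 0. Dtna, which encodes a dystrobrevin, stood at −0.03 ± 0.07 (adjusted p = 0.905). The 3 genes whose groups did not overlap, named after their values were seen, were Mlc1 at −0.82 ± 0.27 (adjusted p = 0.195), Dag1, the dystroglycan gene, at −0.45 ± 0.17 (adjusted p = 0.227) and Hepacam at −0.44 ± 0.13 (adjusted p = 0.105). No overlap held for 16.5% of all tested genes. It also held for 7 of 17 genes of the cyclic AMP list and 3 of 20 of osmotic sensing. For organic osmolytes it held for 1 of 8, and for glycerol and lactate handling for 2 of 8. Mlc1 and Hepacam encode membrane proteins of astrocyte contacts. Of 20 tested genes among 22 of osmotic sensing and cell volume, 0 were called by edgeR, 3 were higher at an unadjusted p under 0.05, and 1 was called higher both by DESeq2 and by limma-voom. Their median was 0.06, with Trpv2 at 0.27 ± 0.09 (adjusted p = 0.117) and Trpv4, which encodes an osmotically gated cation channel and is on both lists, at −0.07 ± 0.33 (adjusted p = 0.952).

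Of 8 genes of organic osmolytes, edgeR called 0, 1 was lower at an unadjusted p under 0.05, DESeq2 called 1 lower and limma-voom 0. All 8 log2 fold changes were below 0, with a median of −0.17. Nfat5, the transcription factor gene of the tonicity response, stood at −0.14 ± 0.10 (adjusted p = 0.53) and Slc6a6, the taurine transporter gene, at −0.23 ± 0.17 (adjusted p = 0.58). Of 8 genes of glycerol and lactate handling, edgeR called 0, 2 were lower at an unadjusted p under 0.05, DESeq2 called 1 lower and limma-voom 0. Their median was −0.04, with Gk, the glycerol kinase gene, at 0.07 ± 0.13 (adjusted p = 0.867) and Gpd1, a glycerol-3-phosphate dehydrogenase gene, at −0.46 ± 0.15 (adjusted p = 0.12).

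**Figure D5:**
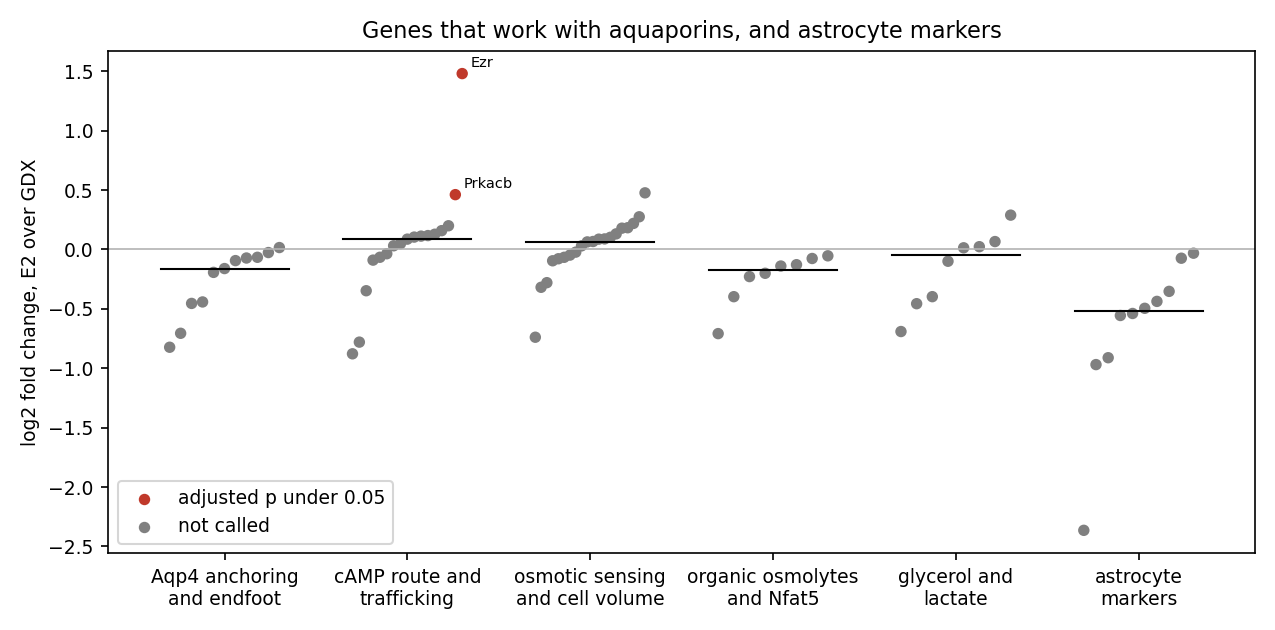
Log2 fold changes, E2 over GDX, of the tested genes of 5 lists that act with aquaporins and of the astrocyte markers, 1 point per gene, with list medians as black lines and called genes in red. Ezr (1.48) and Prkacb (0.46) are the called genes, and the astrocyte markers lie lowest, with a median of −0.52.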

How the data were processed

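Ribosome-bound polyadenylated RNA was measured in 7 libraries, each a pool of 4 brains. The authors deposited 1 expected count per gene and library, of which 33.1% of non-zero values were not whole numbers, with any decimal part counted. Trimmomatic 0.38, STAR 2.6.0a, RSEM 1.3.0 and the build mm10 were named in the submitters' processing notes, without roles or order, and the gene annotation is not given in the sources used here. Identifiers were matched to GENCODE vM21 (GRCm38) for 55117 of 55384 genes.

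The deposited values were rounded to whole numbers and tested with edgeR 4.0.16 in R 4.3.3 (TMM factors, filterByExpr with a minimum count of 10 and total of 15, robust quasi-likelihood test, Benjamini-Hochberg adjustment over 18282 tested genes, threshold 0.05). CPM use TMM-scaled library sizes, scores use a prior count of 2, and log2 fold changes a prior count of 0.125. TPM were computed here and not by the authors. Floors of 3 counts cover counting error only. P-values measure the spread between pools, not between animals.

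Alternatives were other scaling factors and filters, DESeq2 1.42.0, limma 3.58.1 (voom with quality weights), an astrocyte score as covariate, the replicate number as a block, and leaving out each library. Leaving out GDX replicates 1 and 4 together and the protein-coding transcript length were chosen after seeing the data. The edgeR fit was checked on simulated counts. The members and lists were chosen with earlier results of these data known.

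Named were the 7 members, the 5 other aquaporins, protein-coding genes within 100 kb of the cluster, the 5 genes most like Aqp5 and Aqp4, and of each list up to 4 called genes with the largest change and the first 2 that were not called. A gene under this rule is not reported here. Ttr, Rarres2, Mlc1, Dag1, Hepacam, the kisspeptin cell markers and genes of exon overlap were named after their values were seen.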

Additional observations from a re-analysis of the deposited data

Results flagged for a closer look

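Aqp2 in GDX libraries was singled out because replicate 1 lay apart from the other 3, with a gap that made up the whole range of the group (ratio 1). The gap was 1 count, in replicate 1, against 0 counts in the other 3 GDX libraries, so it lies under the floor of 3 counts. With 3 libraries tied at 0, any count in the remaining library fills the whole range.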

How the results depend on the processing

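The count of 1 member called higher in E2 held under all 16 alternatives, and the log2 fold change of Aqp5 ranged from 5.12 to 5.75. The 0 members called lower became 1, Aqp4, with DESeq2, with limma-voom and without GDX replicates 1 and 4, and stayed 0 with 1 library left out. The log2 fold change of Aqp4 ranged from −1.94 to −0.32 over all alternatives and from −1.94 to −1.41 with 1 library left out, and it was below 0 throughout. With 1 library left out, Aqp1 ranged from −0.42 to 0.49, Aqp6 from −0.49 to 0.10, Aqp9 from −1.40 to 0.39 and Aqp11 from −0.03 to 0.15, so none of these 4 kept a direction. The 710 genes called among all tested became 1609 without a filter, 1391 with DESeq2, 1082 with limma-voom, 456 with the astrocyte covariate and 364 to 974 with 1 library left out, the lowest being 364, 418 and 458 without E2 replicate 1, 2 or 3. The cause of these shifts was not tested. The astrocyte score difference was −0.73 to −0.43 with 1 library left out and −0.22 without GDX replicates 1 and 4. With the replicate block, 612 genes were called, Aqp5 stood at 5.52 and Aqp4 at −1.21, and the members called stayed at 1 higher and 0 lower. Deviations of same-numbered libraries correlated at −0.02, −0.04 and −0.06 across genes. These values show no sign that the numbers pair the libraries, but so few correlations cannot exclude it. Depth limits Aqp2 and Aqp1, at 0 to 17 counts per library, and Aqp9, with 2 counts in E2 replicate 2.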
